A study of Mus musculus with 20 samples.

Results

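The nuclear genes of NADH dehydrogenase, complex I of the respiratory chain, were followed in the subcutaneous inguinal white fat (iWAT) and the interscapular brown fat (BAT) of mice with and without α4 in their fat cells. α4, encoded by Igbp1, binds and stabilizes the catalytic subunits of PP2A-family phosphatases. The genes were taken by name, as every row of the gene table whose symbol starts with Nduf, with no use of their values. This gave 45 of 25219 genes. Of these, 36 encode subunits (13 Ndufa genes with Ndufab1 among them, 10 Ndufb, 2 Ndufc, 8 Ndufs and 3 Ndufv), 7 are the assembly factors Ndufaf1 to Ndufaf7, and 2, Ndufa4 and Ndufa4l2, carry the name but were kept apart, because NDUFA4 is now assigned to cytochrome c oxidase and NDUFA4L2 is its relative. All 45 passed the filter on low counts in every comparison.

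Complex I takes electrons from NADH, passes them through a chain of iron-sulfur clusters to ubiquinone, and pumps protons across the inner mitochondrial membrane. Its core subunits are those with bacterial counterparts: the hydrophilic ones come from nuclear genes and the membrane ones from mitochondrial DNA. The accessory subunits surround the core and are needed for assembly and stability. Assembly factors help to build the complex and are not part of the finished enzyme. Brown fat is rich in mitochondria and depends on the respiratory chain to burn fuel for heat. None of the mitochondrial subunit genes has a row in the table, so the measurements cover the nuclear subunits alone.

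RNA was sequenced from 20 libraries of male mice on a mixed C57Bl/6 background, 5 of each tissue and genotype. Ai-α4KO mice carried floxed Igbp1 alleles with the Adiponectin-CreERT2 transgene, so that recombination was limited to cells in which the adiponectin promoter is active. The Control mice, labelled WT, had the floxed alleles without the transgene. Both genotypes received tamoxifen at 100 mg/kg in 5 injections over 6 days from 2 months of age, and tissue was taken 1 week after recombination. The labels do not say whether both tissues came from the same mice, nor that the 5 libraries of a group came from separate mice. If those 5 did not, the p-values measure only the spread between these libraries, which may be technical. Libraries held between 24023371 and 50384446 counts, and the lowest count of any Nduf gene in any library was 23, for Ndufa4l2. Igbp1 was at 57.5 to 76.6 CPM (counts scaled to a common library total) in Control iWAT and at 10.1 to 11.1 CPM in Ai-α4KO iWAT. In BAT it was at 85.4 to 105.0 CPM in Control and at 13.7 to 25.2 CPM in Ai-α4KO. Its log2 fold change was -2.65 ± 0.09 (SE) in iWAT and -2.50 ± 0.17 in BAT (edgeR quasi-likelihood test, adjusted p = 4.99e-08 and 2.2e-07, n = 5 libraries a group).

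Promoter sequence was available for 39 of the 45 genes (RefSeq, GRCm38.p6, the 250 bases before each start). The windows were searched on both strands for the letters of elements that are known from respiratory chain promoters. The element of nuclear respiratory factor 1, searched as GCGCA followed by any base and GCGC, was found in 7 of the 39 promoters (17.9%) and in 1144 of the 27025 genes of the promoter table (4.23%). The ETS-type letters CCGGAAG were found in 4 of 39 (10.3%, against 7.83% of all genes), and the GC box GGGCGG in 18 of 39 (46.2%, against 35.4%). TCAAGGTCA, the form bound by estrogen-related receptors, was in none of the 39 and in 0.422% of all genes. The matches to the first element are shown with their flanks, 5′ to 3′ on the strand of the gene, with the matched letters in capitals. A match describes these letters only.
Ndufa11, chr17:56717692-56717721 (+), 60 bases before the start: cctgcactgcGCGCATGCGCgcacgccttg
Ndufaf4, chr4:24897960-24897989 (+), 113 bases before the start: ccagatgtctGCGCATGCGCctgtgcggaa
Ndufs5, chr4:123718265-123718294 (-), 98 bases before the start: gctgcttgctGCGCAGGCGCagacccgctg
Ndufa5, chr6:24527697-24527726 (-), 26 bases before the nearer of its starts: tgtgtgagctGCGCAGGCGCaaatctacct
Ndufb4, chr16:37654371-37654400 (-), 22 bases before the start: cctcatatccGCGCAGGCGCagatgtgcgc
Ndufb4, chr16:37654428-37654457 (-), 79 bases before the start: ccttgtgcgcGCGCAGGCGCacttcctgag
Ndufb4, chr16:37654540-37654569 (-), 191 bases before the start: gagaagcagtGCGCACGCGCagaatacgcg
Ndufa8, chr2:36049349-36049378 (-), match on the opposite strand, 30 bases before the start: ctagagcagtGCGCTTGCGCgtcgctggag
Ndufs6, chr13:73328483-73328512 (-), match on the opposite strand, 16 bases before the start: ccgccgactgctgtGCGCCTGCGCcggcac

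The Nduf genes together took 0.668% to 0.998% of all counts in the Control iWAT libraries and 0.336% to 0.394% in Ai-α4KO iWAT. In BAT they took 1.78% to 2.12% in Control and 0.693% to 1.11% in Ai-α4KO. The genotypes did not overlap in either tissue. In the level per length (FPKM, which scales fragments by transcript length and sequencing depth), Ndufa4 was the highest gene in Control fat, with 1059 FPKM in iWAT and 3021 in BAT. Among the subunits Ndufb9 led in Control iWAT (604 ± 108 FPKM, SD, n = 5) and Ndufb8 in Control BAT (1538 ± 135), while Ndufa7 was the lowest in both (20.7 ± 6.5 and 35.2 ± 5.61). The subunit order is approximate, since FPKM depends on the transcript length used: Ndufa11, also among the low subunits, was given a transcript of 2661 bases. Assembly factors lay between 4.35 (Ndufaf6) and 25.1 FPKM (Ndufaf1) in Control iWAT. In Control BAT the same genes marked the ends, at 10.4 and 49.1 FPKM. In Control iWAT 5 of the 7 assembly factors were below the lowest subunit mean, and in Control BAT Ndufaf2 and Ndufaf1 were above it. Ndufa4l2 was below all subunits, at 4.17 FPKM in Control iWAT and 7.76 FPKM in Control BAT.

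**Figure D1:**
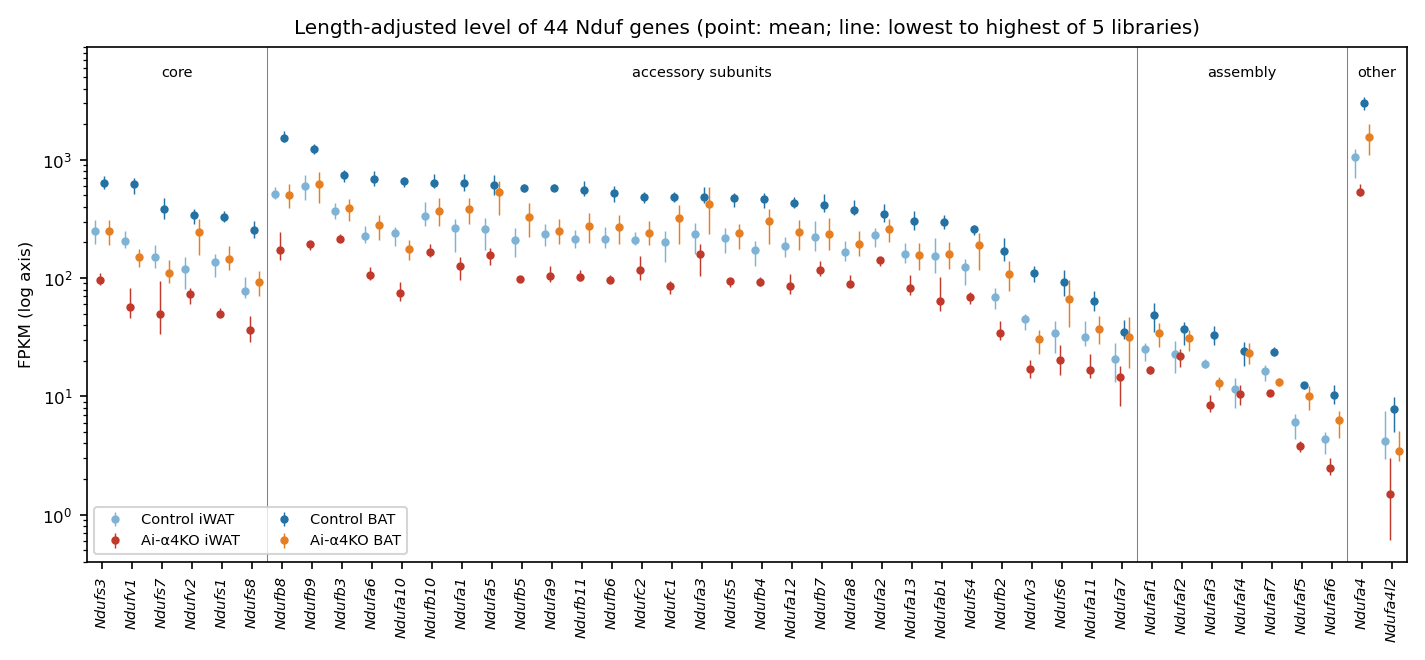
FPKM of 44 Nduf genes on a log axis in the 4 groups of 5 libraries; points are means and lines run from the lowest to the highest library. Ndufa4 stood highest in every group, the 7 assembly factors had group means of 49.1 FPKM or less, and the Control BAT point of each gene was above its Control iWAT point.

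In iWAT the complex I genes were lower without α4. All 45 had a fold change below 0, against 49.2% of the 14604 genes tested, and 30 of them passed the test (edgeR quasi-likelihood test, adjusted p below 0.01 and at least 2-fold lower, 10.7% of all genes tested passed in this direction). None of the 45 was higher (11.3% of all genes tested were): the count was 0 by edgeR, DESeq2 and limma, and 0 at an unadjusted p below 0.05. With no limit on the fold, 41 of the 45 had an adjusted p below 0.01 (40.3% of all genes tested, in either direction). Of the 36 subunits 27 fell, with a class median of -1.22 on the log2 scale, and of the 7 assembly factors 1 fell, with a median of -0.75, beside a median of 0.01 over all genes tested. In 31 of the 36 subunits and in 5 of the 7 assembly factors no Ai-α4KO library reached the lowest Control library (18.3% of all genes tested did not overlap in this direction). Adipocyte markers were also lower in these libraries (8 of 10 fell, median -1.64): their summed level was 24259 to 32576 CPM in Control and 12278 to 17400.2 CPM in Ai-α4KO, with 0 of the 10 at 0 in any iWAT library. Macrophage and monocyte markers were higher (7 of 7 tested, median 2.44), at 1087 to 1830.3 CPM in Control and 7115 to 9539 CPM in Ai-α4KO. Of the 5 neutrophil markers 4 were called higher (median 2.44), with sums of 19.2 to 88.4 CPM in Control and 145 to 480 CPM in Ai-α4KO. Brown adipocyte markers were lower too (6 of 7 fell, median -2.66), with sums of 148 to 1018 CPM in Control and 20.7 to 45.7 CPM in Ai-α4KO and none at 0 in any library. The part of these markers in the result was not tested. Fewer adipocytes in the tissue and less of a transcript in each adipocyte cannot be told apart in such bulk samples. The mean log2 CPM of the subunits minus that of the adipocyte markers ran from -3.79 to -2.38 in Control iWAT. In Ai-α4KO iWAT it ran from -3.21 to -2.44, and the groups overlapped. The group means were -3.10 in Control and -2.73 in Ai-α4KO, and their difference was not tested. Control iWAT replicate 3 had the highest subunit mean (7.70 log2 CPM, against 6.95 to 7.32 in the other Control libraries) and the highest brown adipocyte marker sum (1018 CPM), and without it 22 subunits passed. Without Control replicate 1, 33 subunits and 3 assembly factors passed, and without Control replicate 5 or Ai-α4KO replicate 1, 2 assembly factors did. Control iWAT replicates 1 and 4 also held lymphocyte transcripts, with B cell marker sums of 446 and 178 CPM (4.58 to 12.0 CPM in the other 8 iWAT libraries) and T cell marker sums of 220.1 and 238 CPM (7.91 to 55.0 CPM). All 5 B cell markers tested (6 are listed) had a fold change below 0 in iWAT (median -4.63), and 1 of them was called. Without both libraries 33 subunits and 3 assembly factors passed.

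In BAT the pattern was similar in size. All 45 genes again had a fold change below 0 (51.4% of the 14344 genes tested), 30 fell (13.3% of all genes tested fell) and none was higher (18.2% of all genes tested were), by edgeR, DESeq2 and limma or at an unadjusted p below 0.05. At an adjusted p below 0.01 alone there were 35 (49.8% of all genes tested, in either direction). Among the subunits 26 of 36 fell, with a median of -1.19, and among the assembly factors 2 of 7, with a median of -0.76, beside -0.03 over all genes. In 32 subunits and 3 assembly factors the groups did not overlap (23.0% of all genes tested did not overlap in this direction). The Ai-α4KO BAT libraries differed among themselves: replicates 1 and 2 had subunit means of 7.06 and 6.97 log2 CPM, and replicates 3 to 5 of 7.69, 7.85 and 7.80, all below the Control range of 8.54 to 8.89. Without replicates 1 and 2, 12 subunits and 1 assembly factor passed, and the class medians were -0.95 and -0.53. With library size alone as the scale 13 subunits passed. On that scale the median of all genes moved to 0.23 and the calls over all genes were 1265 lower and 3251 higher, against 1910 lower and 2614 higher with TMM. By limma on log2(FPKM + 1), 15 subunits passed, and the calls over all genes were 807 lower and 2118 higher.

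Markers of skeletal muscle, another tissue rich in complex I, were detected in the BAT libraries. The 10 markers summed to 1072 to 11852 CPM in Control BAT and to 16154 to 52721 CPM in Ai-α4KO BAT, 7 of the 10 were called higher there (median 1.91), and 0 of them were at 0 in any BAT library. In replicate order the Ai-α4KO BAT sums were 16154, 17606, 28659.6, 52721 and 28942 CPM, so the libraries with the lower subunit means also had the lower muscle sums. With the muscle marker level as a covariate, 22 subunits and 2 assembly factors fell and the subunit median was -1.27. The calls over all genes in that fit were 1573 lower and 1695 higher. The mean log2 CPM of the muscle markers was at most 9.90 in Control BAT and at least 10.37 in Ai-α4KO BAT. As the muscle level did not overlap between the genotypes, the fit cannot separate muscle from the loss of α4. The part of muscle in the BAT result was therefore not tested. Adipocyte markers fell in 8 of 10 cases (median -1.87, sums of 24569 to 28047 CPM in Control and 13354 to 16316 CPM in Ai-α4KO), and all 7 macrophage and monocyte markers tested were higher (218 to 489 against 4069.7 to 6715 CPM). All 5 neutrophil markers (median 3.86), all 3 mast cell markers (median 2.46) and 4 of 6 T cell markers (median 1.86) were also called higher. Of all genes tested in BAT 13.3% were called lower and 18.2% higher. Endothelial marker sums were 675 to 977 CPM in Control and 255 to 346 CPM in Ai-α4KO BAT. Fibroblast and progenitor marker sums were 631 to 1039 CPM in Control and 1281 to 1692 CPM in Ai-α4KO BAT. For neutrophils the marker sums in Control and Ai-α4KO BAT were 11.8 to 35.1 and 199 to 358 CPM. For mast cells they were 9.28 to 29.6 and 66.2 to 110.4 CPM, and for T cells 2.81 to 4.93 and 14.5 to 57.7 CPM. Of the 7 brown adipocyte markers 2 fell (median -1.08), with sums of 8345 to 12766 CPM in Control and 1634 to 3629 CPM in Ai-α4KO. This list is not independent of the respiratory chain lists below: Cox7a1 and Cox8b are also counted in complex IV and Ppargc1a among the regulators. The part of these markers in the result was not tested. Subunit minus adipocyte marker levels overlapped between Control BAT (-1.78 to -1.07, mean -1.37) and Ai-α4KO BAT (-1.91 to -0.29, mean -0.87).

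**Figure D2:**
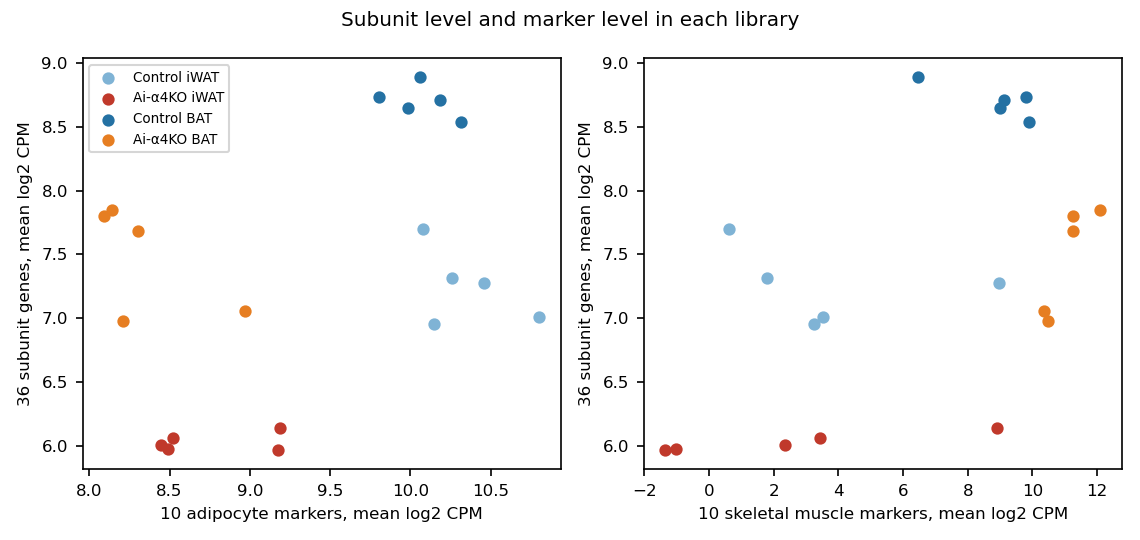
Mean log2 CPM of the 36 subunit genes (vertical axis) against that of 10 adipocyte markers (left) and 10 skeletal muscle markers (right), 1 point per library. Ai-α4KO BAT libraries have the highest muscle levels and split into a pair near 7.0 and 3 near 7.8 on the vertical axis.

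**Figure D3:**
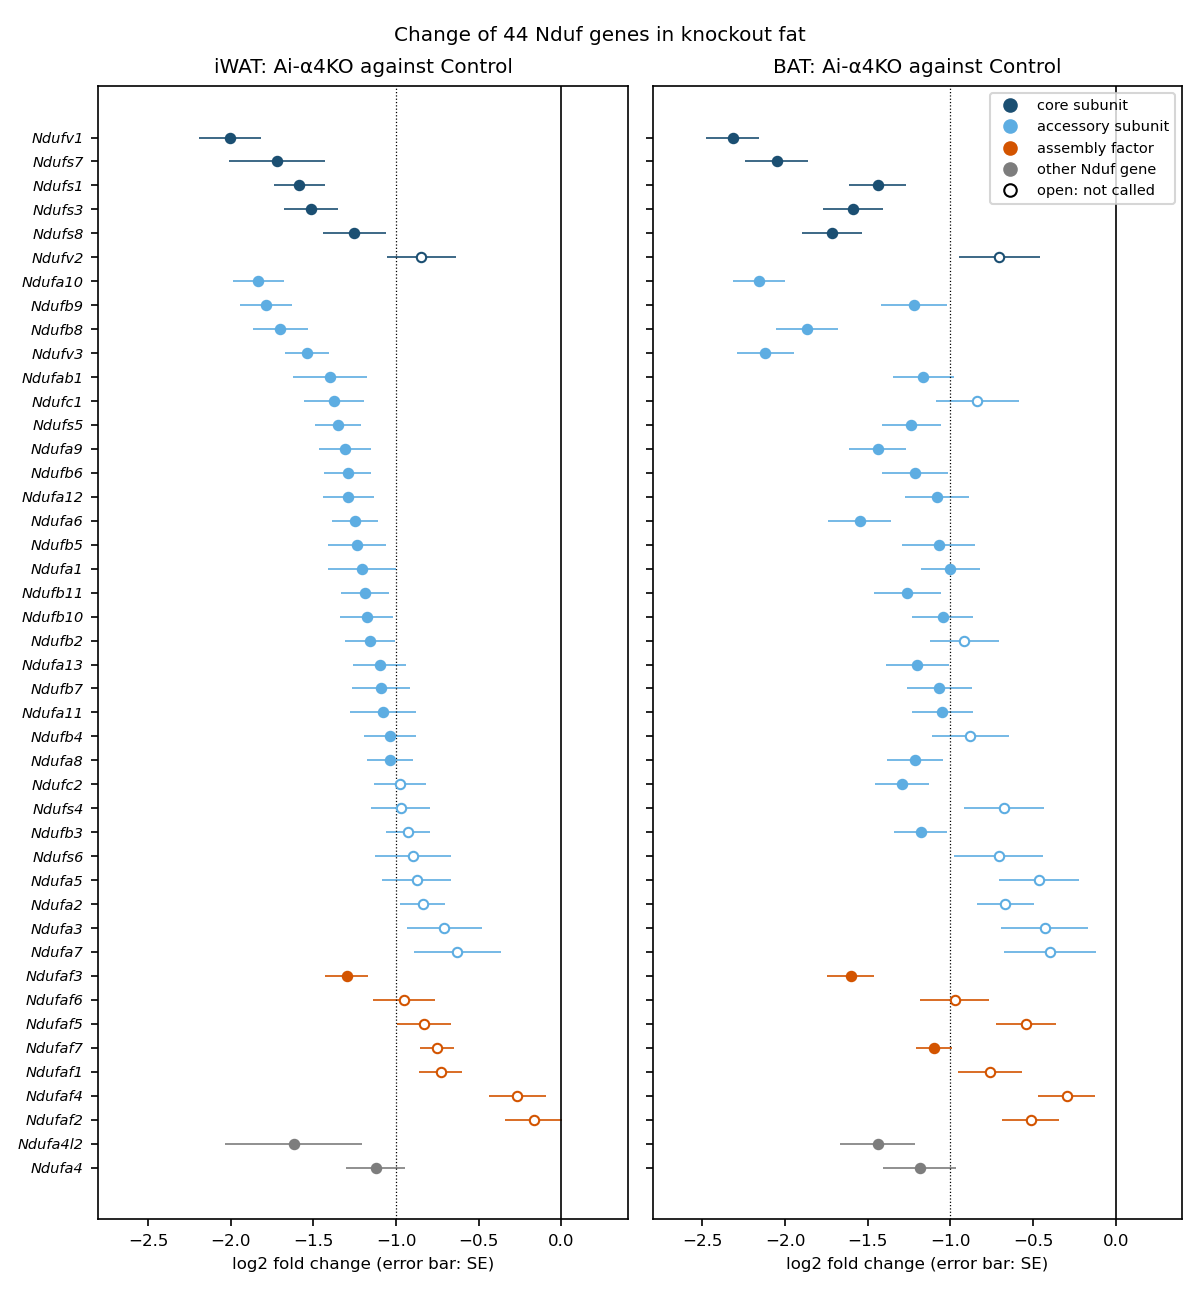
Log2 fold change of Ai-α4KO against Control with its SE for 44 genes in iWAT (left) and BAT (right), 5 libraries a group; filled points passed the test and the dotted line marks 2-fold. Every point lies left of 0, and most assembly factors lie right of the dotted line.

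The core subunits, which hold the flavin and the iron-sulfur clusters, had a larger median change than the accessory ones; the classes were not tested against each other. In each tissue 6 of the 7 fell, and the class median stood at -1.59 on the log2 scale in either tissue, while 21 and 20 of the 29 accessory subunits fell, with medians of -1.18 and -1.08 (10.7% of all genes tested fell in iWAT and 13.3% in BAT). Ndufv1 (chr19:4007499-4012755, minus strand, mm10), which encodes the flavoprotein that binds NADH, was the most reduced of all 45 genes in both tissues. Ndufv1 was measured in iWAT at 336, 366, 504, 312 and 349 CPM in Control replicates 1 to 5 and at 133, 95.9, 76.1, 83.8 and 78.1 CPM in the Ai-α4KO replicates. The BAT values were 1443, 1124, 1338, 1261 and 1288 CPM in Control and 242, 207, 236, 339.5 and 303 CPM in Ai-α4KO. Neither tissue showed any overlap, and the reduction was 4.01-fold in iWAT (log2 fold change -2.0 ± 0.19 (SE), adjusted p = 1.11e-05) and 4.98-fold in BAT (log2 fold change -2.32 ± 0.16 (SE), adjusted p = 2.35e-07). Ndufv3, for an accessory subunit beside NDUFV1, changed by -1.54 ± 0.13 in iWAT and -2.12 ± 0.17 in BAT.

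Ndufs7 (chr10:80249452-80256792, plus strand) encodes the subunit with the last cluster before ubiquinone. In iWAT the Control replicates 1 to 5 held 137, 112, 180.2, 98.7 and 107 CPM of Ndufs7 and the Ai-α4KO replicates 72, 34.5, 26.5, 32.6 and 27.5 CPM. BAT held 463, 326, 334, 432 and 325 CPM in Control and 73.2, 74.4, 80.5, 118 and 119 CPM in Ai-α4KO. Ai-α4KO iWAT replicate 1 was above the other 4 Ai-α4KO libraries, and no Ai-α4KO library reached a Control library. The log2 fold change was -1.72 ± 0.29 in iWAT and -2.05 ± 0.19 in BAT (adjusted p = 0.00046 and 2.21e-06). The core genes Ndufs1, Ndufs3 and Ndufs8 all passed, over log2 fold changes of -1.59 to -1.25 (iWAT) and -1.72 to -1.44 (BAT).

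Ndufv2, the core flavoprotein subunit that pairs with NDUFV1, was the core gene that did not pass. For Ndufv2 in iWAT, 140.0, 255, 305, 248 and 159 CPM were found in Control and 98.8, 125, 140.1, 117 and 137 CPM in Ai-α4KO, in replicate order. Levels in BAT were 800.1, 854, 713, 622 and 590.1 CPM for Control and 268, 268, 567, 567 and 571 CPM for Ai-α4KO. In iWAT the ranges just met, with Ai-α4KO replicate 3 level with Control replicate 1. In BAT Ai-α4KO replicates 3 to 5 came close to the lowest Control library, and replicates 1 and 2 were far lower. Its log2 fold change was -0.85 ± 0.21 in iWAT and -0.70 ± 0.25 in BAT (edgeR adjusted p = 0.0051 and 0.0248), under 2-fold in both.

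Among the Ndufa genes 9 of 13 fell in each tissue (10.7% of all genes tested in iWAT, 13.3% in BAT). Ndufa10, an accessory subunit of the membrane arm, was the most reduced. Ndufa10 was measured in iWAT at 239, 333, 407, 327 and 319 CPM in Control replicates 1 to 5 and at 113, 95.4, 80.4, 89.9 and 79.7 CPM in the Ai-α4KO replicates. The BAT values were 1051, 1170.0, 1076, 885 and 996 CPM in Control and 213, 178, 223, 299.7 and 273 CPM in Ai-α4KO. All Ai-α4KO libraries were well below Control, with reductions of 3.56-fold and 4.47-fold (log2 -1.83 ± 0.15 and -2.16 ± 0.16, adjusted p = 5.7e-06 and 3.71e-07). Ndufa7, an accessory subunit of the NADH-binding arm, had the smallest change of any subunit. In iWAT, Ndufa7 was at 18.8, 31.4, 34.4, 36.8 and 17.5 CPM in Control and at 10, 17.2, 21.6, 19.2 and 22.2 CPM in Ai-α4KO, in replicate order. Control BAT gave 67.1, 49.9, 53.8, 55.9 and 45.6 CPM for Ndufa7 and Ai-α4KO BAT gave 24.5, 21.8, 63.2, 44.7 and 56.9 CPM. The groups overlapped in both tissues: Control iWAT replicates 1 and 5 were as low as the Ai-α4KO libraries, and Ai-α4KO BAT replicates 3 and 5 lay within the Control range. Neither difference passed (log2 -0.63 ± 0.26 and -0.40 ± 0.28, adjusted p = 0.0616 and 0.228). Ndufa2, Ndufa3 and Ndufa5 were also under 2-fold in both tissues, over -0.88 to -0.71 (iWAT) and -0.67 to -0.43 (BAT). Ndufa1, on the X chromosome, stood at the limit in BAT with a 2.0-fold reduction, and its call was lost without Control BAT replicate 1 or 3 or Ai-α4KO BAT replicate 1 or 2.

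The Ndufb genes, whose products build the distal membrane arm, fell in 9 of 10 cases in iWAT and 8 of 10 in BAT (10.7% and 13.3% of all genes tested), and none overlapped between groups (18.3% and 23.0% of all genes tested were lower with no overlap). In iWAT the Control replicates 1 to 5 held 317, 455, 597, 453 and 385 CPM of Ndufb9 and the Ai-α4KO replicates 135, 136, 117, 129.8 and 125 CPM. Ndufb8 in BAT was at 1431, 1257, 1330.4, 1201 and 1136 CPM in Control and at 264, 261, 347, 474 and 437 CPM in Ai-α4KO. Ndufb9 in iWAT and Ndufb8 in BAT were the most reduced of the class, by 3.45-fold and 3.65-fold (log2 -1.79 ± 0.16 and -1.87 ± 0.19, adjusted p = 7.35e-06 and 4.36e-06). The least reduced were Ndufb3 in iWAT and Ndufb4 in BAT. Ndufb3 had 177, 222, 285, 228 and 185 CPM in Control iWAT and 109, 117, 116, 127 and 110.1 CPM in Ai-α4KO iWAT, in replicate order. For Ndufb4, BAT held 304, 324, 269, 258 and 221 CPM in Control and 93.7, 94.3, 183, 201 and 191 CPM in Ai-α4KO. Both were lower in every Ai-α4KO library than in any Control library, but by less than 2-fold (log2 -0.93 ± 0.13 and -0.88 ± 0.23, adjusted p = 0.000154 and 0.00588).

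The 2 Ndufc genes, for small subunits of the membrane arm, were called in different tissues. For Ndufc1 in iWAT, 60.4, 97.7, 122, 112 and 77.8 CPM were found in Control and 30.3, 33.5, 39.8, 38 and 40.2 CPM in Ai-α4KO, in replicate order. BAT held 282, 271, 267, 238 and 229.5 CPM in Control and 84.6, 84.2, 190.2, 206 and 171 CPM in Ai-α4KO. Ndufc1 fell in iWAT (log2 -1.38 ± 0.18, adjusted p = 8.26e-05) and missed both limits in BAT (log2 -0.84 ± 0.25, adjusted p = 0.0114), where Ai-α4KO replicates 1 and 2 were far below replicates 3 to 5. In iWAT, Ndufc2 was at 138, 161, 209, 149.8 and 144 CPM in Control and at 104, 88.2, 80.8, 68.8 and 67.1 CPM in Ai-α4KO, in replicate order. Control BAT gave 463, 475, 428, 409 and 369 CPM for Ndufc2 and Ai-α4KO BAT gave 136, 141, 231, 188 and 199.6 CPM. Ndufc2 was just under 2-fold in iWAT (log2 -0.98 ± 0.16) and fell in BAT (log2 -1.29 ± 0.16), with no overlap in either. The difference between the tissues was not past the limit for either gene (interaction log2 0.56 and -0.29, adjusted p = 0.247 and 0.397).

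Ndufs4 and Ndufs6, accessory subunits of the NADH-binding arm, were the least reduced of the Ndufs genes. Ndufs6 had 14.1, 25, 28.6, 26.3 and 15.6 CPM in Control iWAT and 8.63, 11.8, 12.2, 10.6 and 15.8 CPM in Ai-α4KO iWAT, in replicate order. For Ndufs4, BAT held 542, 583, 529, 451 and 449 CPM in Control and 203, 186, 408, 437 and 399 CPM in Ai-α4KO. For Ndufs6 in iWAT, Ai-α4KO replicate 5 lay above Control replicates 1 and 5, and for Ndufs4 in BAT Ai-α4KO replicate 4 came close to the lowest Control library without reaching it. Their log2 fold changes were -0.90 ± 0.23 and -0.68 ± 0.24 (adjusted p = 0.00615 and 0.0275). By position in the complex, the Q module that reduces ubiquinone had the largest median (-1.41 in iWAT and -1.58 in BAT, with 5 of 6 genes lower in each), the distal membrane arm had 10 and 9 of 11 genes called, and the N module that oxidizes NADH had the widest range, from Ndufv1 to Ndufa7, with 5 of 10 genes called in each tissue, where 10.7% of all genes tested were called lower in iWAT and 13.3% in BAT. These are counts over few genes, and the modules were not tested against each other.

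**Figure D4:**
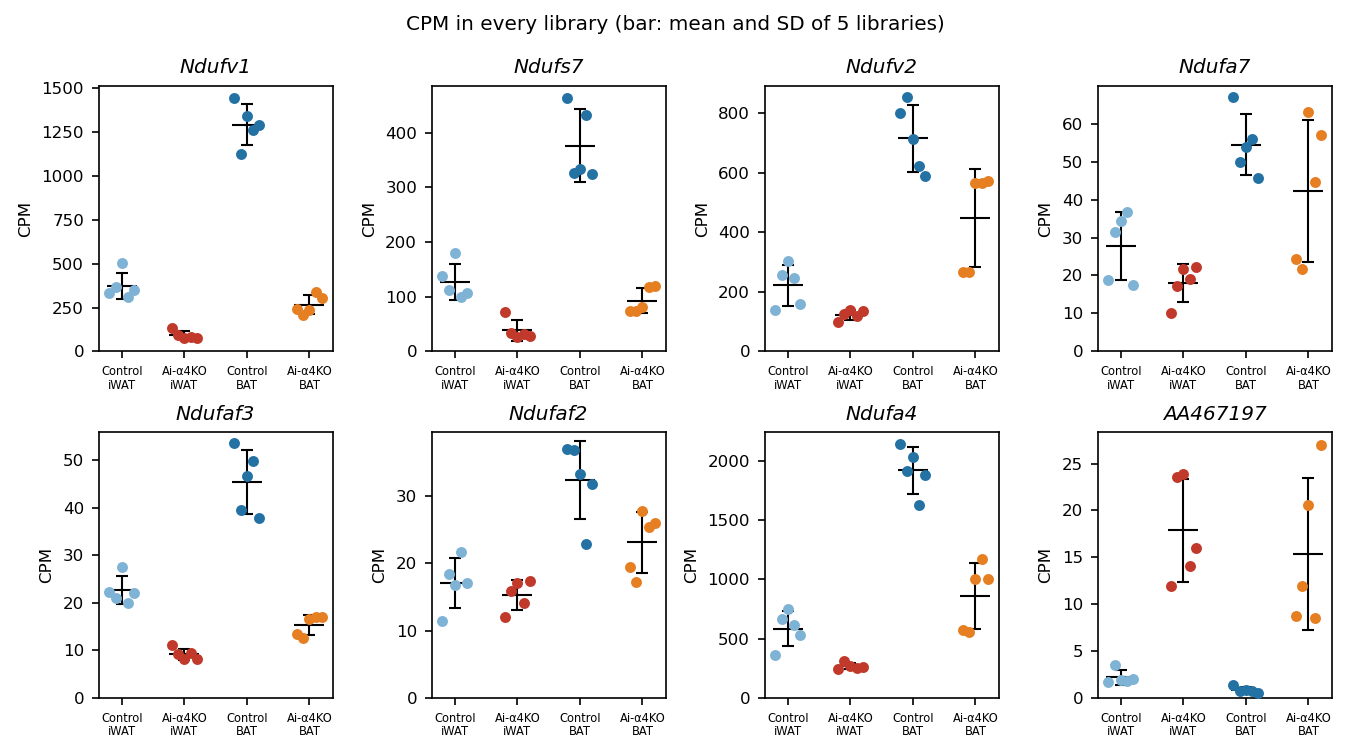
CPM in each of the 20 libraries for 4 subunit genes, 2 assembly factor genes, Ndufa4 and AA467197; bars are the mean and SD of 5 libraries. Ndufv1, Ndufs7 and Ndufaf3 separate the genotypes in both tissues, Ndufa7 and Ndufaf2 do not, and AA467197 runs the other way.

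The assembly factors had smaller median changes than the subunits, and the classes were not tested against each other. Ndufaf3 (chr9:108565865-108567342, minus strand), needed for an early intermediate that contains the Q module, was the only one of the 7 called in iWAT, a count near the 10.7% of all genes tested that fell there. Ndufaf3 was measured in iWAT at 22.3, 20.9, 27.6, 20 and 22.1 CPM in Control replicates 1 to 5 and at 11, 9.23, 8.19, 9.44 and 8.14 CPM in the Ai-α4KO replicates. Levels in BAT were 53.5, 39.4, 46.6, 49.7 and 37.7 CPM for Control and 13.4, 12.7, 16.5, 17 and 16.9 CPM for Ai-α4KO. No library overlapped, and the reductions were 2.46-fold (log2 fold change -1.30 ± 0.13 (SE), adjusted p = 1.47e-05) and 3.04-fold (log2 fold change -1.60 ± 0.14 (SE), adjusted p = 1.64e-06). Ndufaf7, a methyltransferase that modifies a subunit of the complex, was the other gene called in BAT, where 13.3% of all genes tested fell. In iWAT, Ndufaf7 was at 32.8, 44.2, 45.3, 45.9 and 41.6 CPM in Control and at 24, 25.9, 24.3, 26.6 and 24.3 CPM in Ai-α4KO, in replicate order. Control BAT gave 76.4, 75.6, 72.5, 65.6 and 63.9 CPM for Ndufaf7 and Ai-α4KO BAT gave 31.2, 29.4, 35.5, 39.5 and 33.5 CPM. Its groups were apart in both tissues, with a 1.68-fold difference in iWAT and a 2.14-fold difference in BAT (log2 -0.75 ± 0.10 and -1.10 ± 0.11, adjusted p = 0.000106 and 3.43e-06).

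Ndufaf1, a member of the complex that assembles the proximal membrane arm, and Ndufaf5, which hydroxylates NDUFS7, differed by less than 2-fold. In iWAT the Control replicates 1 to 5 held 30.9, 44.5, 51.4, 42 and 35.6 CPM of Ndufaf1 and the Ai-α4KO replicates 22.6, 24.4, 25.4, 24.9 and 26.5 CPM. The BAT values were 97.7, 121, 92.2, 86.5 and 63.3 CPM in Control and 40.1, 42.2, 65.4, 63.3 and 66.5 CPM in Ai-α4KO. In BAT the lowest Control library, replicate 5, was below Ai-α4KO replicates 3 and 5 and level with replicate 4. Ndufaf5 had 12.7, 20.2, 23.6, 20.8 and 16.3 CPM in Control iWAT and 10.7, 10.4, 11.8, 9.43 and 10.5 CPM in Ai-α4KO iWAT, in replicate order. For Ndufaf5, BAT held 41.1, 48, 46.2, 39.5 and 43.7 CPM in Control and 21.9, 21.6, 37.5, 40 and 32.5 CPM in Ai-α4KO. For Ndufaf5 the groups were apart in iWAT and overlapped in BAT through Ai-α4KO replicate 4. The log2 fold changes were -0.73 ± 0.13 and -0.76 ± 0.19 for Ndufaf1 and -0.83 ± 0.16 and -0.54 ± 0.18 for Ndufaf5. Ndufaf6, which acts on an early step and was the lowest assembly factor per length, was close to 2-fold in both tissues. For Ndufaf6 in iWAT, 4.81, 5.41, 6.39, 5.82 and 3.87 CPM were found in Control and 3.29, 2.92, 2.63, 2.4 and 2.41 CPM in Ai-α4KO, in replicate order. BAT held 15.9, 18.2, 13, 13.7 and 11.6 CPM in Control and 5.61, 5.03, 8.43, 9.75 and 8.86 CPM in Ai-α4KO. Its groups did not overlap (log2 -0.95 ± 0.19 and -0.98 ± 0.21, adjusted p = 0.00139 and 0.00151).

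Ndufaf2 and Ndufaf4 changed least. Ndufaf2 encodes a relative of the subunit NDUFA12 that leaves late in assembly. In iWAT, Ndufaf2 was at 11.4, 18.5, 16.8, 21.7 and 17.1 CPM in Control and at 12, 15.9, 17.1, 14 and 17.5 CPM in Ai-α4KO, in replicate order. Control BAT gave 37, 36.9, 33.3, 22.9 and 31.8 CPM for Ndufaf2 and Ai-α4KO BAT gave 19.5, 17.2, 27.7, 25.3 and 26 CPM. All 5 Ai-α4KO iWAT libraries lay within the Control range, and in BAT the groups overlapped (log2 -0.17 ± 0.17 and -0.52 ± 0.17, adjusted p = 0.433 and 0.019). Without Control iWAT replicate 4 and Ai-α4KO iWAT replicate 1, the iWAT libraries with the highest muscle marker sums, the Ndufaf2 value turned to 0.0073. A noncoding gene on the opposite strand covers 65.6% of its exon bases, and whether reads were counted by strand is not given in the sources used here. Ndufaf4 was measured in iWAT at 30.4, 49.7, 54.7, 56.2 and 41.6 CPM in Control replicates 1 to 5 and at 30.9, 46, 40.9, 34.8 and 41.6 CPM in the Ai-α4KO replicates. Levels in BAT were 111, 142, 123, 82.3 and 106 CPM for Control and 71.4, 76.1, 115, 106 and 102 CPM for Ai-α4KO. Ndufaf4, an early-acting partner of NDUFAF3, overlapped in both tissues (log2 -0.27 ± 0.17 and -0.30 ± 0.17, adjusted p = 0.21 and 0.151).

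The mean log2 CPM of the 36 subunits minus that of the 7 Ndufaf genes puts the classes side by side in each library. The difference was 2.83, 2.75, 2.97, 2.64 and 2.66 in Control iWAT replicates 1 to 5 and 2.38, 2.21, 2.18, 2.23 and 2.18 in Ai-α4KO iWAT. In BAT it was 3.18, 2.93, 3.07, 3.21 and 3.12 in Control and 2.56, 2.53, 2.66, 2.79 and 2.84 in Ai-α4KO. The group means were 2.77 ± 0.14 and 2.24 ± 0.08 in iWAT and 3.10 ± 0.11 and 2.68 ± 0.13 in BAT (SD, n = 5), and the genotypes were apart in both tissues. The distance narrowed by 0.53 log2 units in iWAT and 0.42 in BAT, by 0.54 and 0.43 when taken from log2(FPKM + 0.1), and by 0.49 and 0.48 when medians replaced means. As a score over chosen genes it was given no test.

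**Figure D5:**
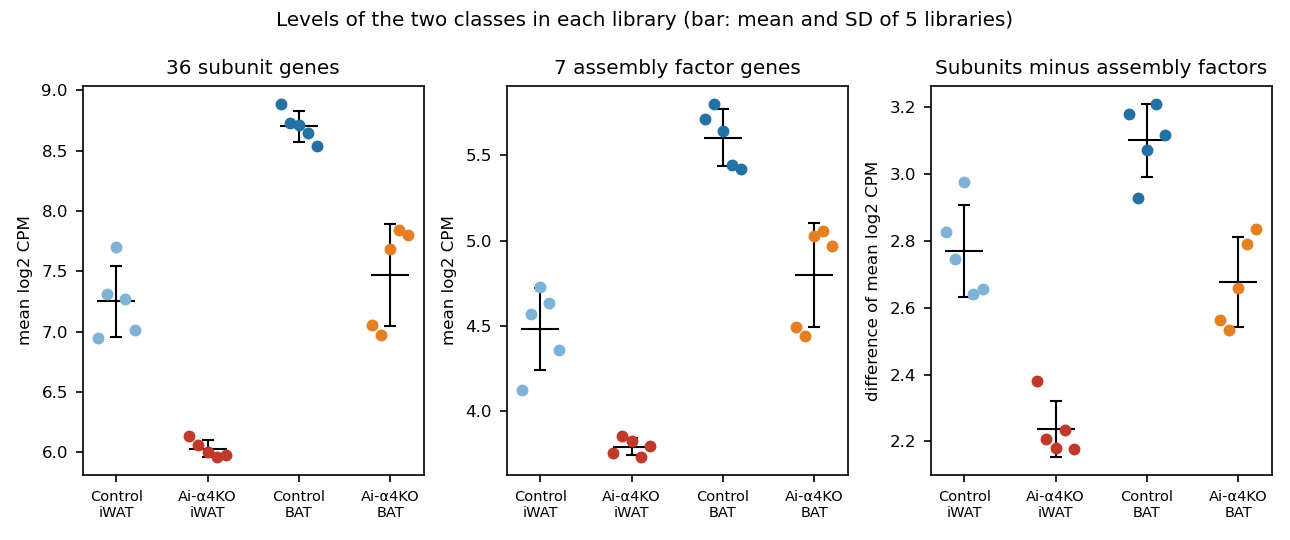
Mean log2 CPM of the 36 subunit genes (left), of the 7 assembly factor genes (middle) and their difference (right) in each library; bars are the mean and SD of 5 libraries. In iWAT and in BAT the Ai-α4KO libraries lie below Control in all 3 panels, and the right panel runs from 2.18 to 3.21.

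Other genes with a role in assembly, named for other reasons than Nduf, gave 4 of 13 lower in iWAT and 6 of 13 lower in BAT, with medians of -0.85 and -0.96 and none called higher, where 10.7% of all genes tested fell in iWAT and 13.3% in BAT. Foxred1, an oxidoreductase-like assembly factor, changed by -1.44 ± 0.15 and -1.94 ± 0.12. Ecsit, part of the complex that assembles the membrane arm together with NDUFAF1, ACAD9 and TMEM126B, changed by -1.39 ± 0.20 and -1.85 ± 0.16, while Acad9 did not reach 2-fold (-0.85 and -0.96). Aifm1, a mitochondrial flavoprotein required for normal complex I levels, changed by -1.38 ± 0.12 and -1.84 ± 0.10, and Nubpl, which delivers iron-sulfur clusters to the complex, by -1.07 ± 0.13 and -1.33 ± 0.12. Tmem186 and Atp5sl were called in BAT alone; their interaction was not past the limit (adjusted p = 0.0434 and 0.287). Within the same comparisons 3 of 4 complex II genes fell in iWAT and 4 of 4 in BAT, 7 of 9 complex III genes in each, 11 and 9 of 15 complex IV genes, and 6 of 16 complex V genes in each, while 1 complex IV and 1 complex V gene rose in BAT. These were Cox6a2, the heart and muscle form of its subunit (log2 fold change 2.23), and Atp5g1, for the ring of the ATP synthase (2.09), both named after their values were seen. Neither was called in the fit with the muscle marker level, which cannot separate muscle from genotype (log2 -0.06 and 0.56). The Cox6a2 call was also lost without Control BAT replicate 3 or 4 or Ai-α4KO BAT replicate 3, 4 or 5. Of 77 mitochondrial ribosomal protein genes 4 fell in iWAT and 23 in BAT, with medians of -0.44 and -0.72, and the iWAT count was below the 10.7% over all genes tested. In every library the subunit level stood above the ribosomal one, by 1.74 log2 CPM in Control and 0.98 in Ai-α4KO iWAT and by 2.29 and 1.79 in BAT (group means).

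Ndufa4, the most abundant gene of the name, fell in both tissues. In iWAT the Control replicates 1 to 5 held 365, 662, 750.1, 618 and 529 CPM of Ndufa4 and the Ai-α4KO replicates 243, 314, 273, 256 and 261 CPM. The BAT values were 2142, 1911, 2032, 1623 and 1878 CPM in Control and 571, 557, 1006, 1167 and 1005 CPM in Ai-α4KO. No library overlapped, and the reductions were 2.18-fold and 2.28-fold (log2 -1.12 ± 0.18 and -1.19 ± 0.22, adjusted p = 0.00028 and 0.000513). Ndufa4l2 had 7.67, 3.76, 3.53, 3.62 and 3.58 CPM in Control iWAT and 2.92, 1.09, 0.604, 1.61 and 1.01 CPM in Ai-α4KO iWAT, in replicate order. For Ndufa4l2, BAT held 12.1, 6.46, 8.52, 10.9 and 9.99 CPM in Control and 3.23, 2.86, 3.18, 3.51 and 5.35 CPM in Ai-α4KO. Ndufa4l2, known as a hypoxia-induced gene and expressed in vessel-associated cells, fell by 1.62 ± 0.41 and by 1.44 ± 0.23 on the log2 scale (adjusted p = 0.00635 and 0.00017), and its groups did not overlap, although Ai-α4KO iWAT replicate 1 at 2.92 CPM came near the lowest Control value. The iWAT call of Ndufa4l2 was kept in 3 of 10 fits with 1 library left out (without Control replicate 3, Control replicate 4 or Ai-α4KO replicate 1) and lost in the other 7, with log2 fold changes of -2.03 to -1.38. Endothelial markers were lower as well, with 3 of 5 called in each tissue (10.7% of all genes tested in iWAT, 13.3% in BAT). Their sums were 347 to 458 CPM in Control iWAT and 167 to 239 CPM in Ai-α4KO iWAT. In BAT they were 675 to 977 CPM in Control and 255 to 346 CPM in Ai-α4KO. The part of these markers in the Ndufa4l2 result was not tested.

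AA467197 encodes the mouse counterpart of C15ORF48, a mitochondrial paralog that is known to take the place of NDUFA4 in cytochrome c oxidase during inflammation. It rose in both tissues. In iWAT, AA467197 was at 1.67, 3.51, 1.95, 1.77 and 2.02 CPM in Control and at 12, 23.6, 23.9, 14 and 16 CPM in Ai-α4KO. In BAT it was at 1.41, 0.704, 0.861, 0.776 and 0.518 CPM in Control and at 8.78, 11.9, 20.6, 8.5 and 27 CPM in Ai-α4KO. Every Ai-α4KO library was above every Control library, by 8.15-fold in iWAT and 17.7-fold in BAT (log2 3.03 ± 0.28 and 4.14 ± 0.41, adjusted p = 9.29e-06 and 3.91e-06). Per length it went from 3.07 to 27.3 FPKM in iWAT and from 1.04 to 21.9 FPKM in BAT, while Ndufa4 went from 1059 to 536 FPKM in iWAT and from 3021 to 1575 FPKM in BAT. The macrophage and monocyte and the neutrophil markers given above moved with it in both tissues, and the mast cell and T cell markers in BAT, and their part in the result was not tested. Of the other 4 partner genes on the list, Nnt, for the transhydrogenase that makes NADPH from NADH, did not pass in iWAT (log2 -0.14) and was called higher in BAT (log2 2.08 ± 0.58, adjusted p = 0.00757). Nnt in BAT was at 7.65, 36.7, 19.7, 13.7 and 50.9 CPM in Control and at 24.3, 74.9, 139.9, 214.6 and 102 CPM in Ai-α4KO, with overlapping groups. Its BAT call was kept in 3 of 10 fits with 1 library left out, with log2 fold changes of 1.74 to 2.49 over all 10. Those 3 were without Control replicate 5, Ai-α4KO replicate 1 or Ai-α4KO replicate 2. The call was also lost with the muscle marker level as a covariate (log2 0.27), where muscle and genotype cannot be separated. Higd2a, a supercomplex-related membrane protein, was under 2-fold in iWAT (-0.85) and fell in BAT (-1.10 ± 0.13, adjusted p = 1.79e-05). Cox7a2l, which ties complexes III and IV, and Higd1a were not called in either tissue (-0.25 and -0.77 for Cox7a2l, -0.68 and -0.56 for Higd1a, iWAT and BAT).

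Between the tissues, all 45 genes were higher in BAT than in iWAT of Control mice, where 50.2% of all genes tested were lower, and 41 passed the test (7.34% of all genes tested passed in this direction). Of the subunits 34 of 36 and of the assembly factors 5 of 7 were called, with a median log2 difference of 1.46 for subunits and 1.17 for assembly factors, from 0.75 for Ndufaf7 to 1.89 for Ndufs8. In 44 of the 45 the libraries did not overlap (17.2% of all genes tested), Ndufa4l2 being the exception. In Ai-α4KO mice all 45 were again higher in BAT, where 58.0% of all genes tested were lower, and 41 passed (8.54% of all genes tested), 35 subunits and 4 assembly factors, from 0.43 for Ndufaf7 to 2.02 for Ndufc1, while the median of all genes tested was -0.11. In 42 of them the libraries did not overlap (13.5% of all genes tested). The subunit means were 6.97 to 7.85 log2 CPM in Ai-α4KO BAT and 6.95 to 7.70 in Control iWAT. The muscle marker sums, 19.4 to 8316 CPM in Control iWAT and 5.17 to 6129 CPM in Ai-α4KO iWAT, were mostly below those of BAT. In Control mice all 7 brown adipocyte markers were called higher in BAT (median 3.61), with 3 of 5 endothelial markers. All 7 macrophage and monocyte markers (median -2.53) and all 5 fibroblast and progenitor markers (median -1.88) were called lower. So were all 5 B cell markers tested (6 are listed), all 6 T cell and all 3 mast cell markers (15.4% of all genes tested were called lower). In Control iWAT the B cell sums had a median of 7.46 and a maximum of 446 CPM, and the T cell sums 10.7 and 238 CPM. In BAT 4 of the 6 B cell markers were at 0 in some library. In Ai-α4KO mice the brown adipocyte markers were again all called higher (median 6.32) with 1 of 5 endothelial markers, and 1 of 7 macrophage and 3 of 5 fibroblast markers were called lower (4.09% of all genes tested were). The part of these markers in the tissue difference was not tested.

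No Nduf gene responded differently to the loss of α4 in the 2 tissues past the limit. The interaction of genotype and tissue gave 0 of 45 (3.83% of all genes tested in either direction) by edgeR, DESeq2 and limma. At an unadjusted p below 0.05 there were 3 of 45 by edgeR and 2 by each of DESeq2 and limma. Chance alone meets that limit in about 1 in 20 genes, and with 1 library left out the edgeR count ran from 1 to 4. The 3 genes are therefore not read as differences between the tissues. The 3 were Ndufv3 (-0.55, a larger fall in BAT, adjusted p = 0.0804), Ndufb9 (0.59, a larger fall in iWAT, adjusted p = 0.118) and Ndufaf7 (-0.32, adjusted p = 0.125). Ndufv3 was at 60.9, 84.2, 97.6, 75.1 and 80.4 CPM in Control iWAT and at 31.7, 23.3, 29.3, 26.6 and 26.7 CPM in Ai-α4KO iWAT, in replicate order. In BAT it was at 255, 197, 222, 201 and 244 CPM in Control and 43.4, 37.2, 63.1, 56.6 and 63.5 CPM in Ai-α4KO. The Ai-α4KO BAT libraries lay at the lower end of the Control iWAT range or below it.

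Of 8 regulators of respiratory chain genes, 2 fell in each tissue and none rose (of all genes tested 10.7% fell and 11.3% rose in iWAT, and 13.3% fell and 18.2% rose in BAT). Ppargc1a, a coactivator that drives mitochondrial genes, fell in iWAT (log2 -2.0 ± 0.23, adjusted p = 3.52e-05) and not in BAT (-0.15 ± 0.26, adjusted p = 0.642), and the interaction passed (log2 1.89, adjusted p = 0.00266). Its CPM in Control and Ai-α4KO BAT was 70.1, 57.3, 99.2, 45.2 and 101 and 81.5, 87.6, 56.6, 81.8 and 39.7 in replicate order, with overlapping ranges, and the direction of that BAT value flips to 0.13 with library size alone and 0.12 by limma. The related Ppargc1b fell in both (-1.81 ± 0.22 and -2.75 ± 0.27). Esrra, the nuclear receptor that both coactivators serve, was at -1.0 ± 0.18 in iWAT, just short of 2-fold, and fell in BAT (-1.44 ± 0.15). Nrf1, which binds the first of the searched promoter elements, was at 0.03 in iWAT and -0.09 in BAT (adjusted p = 0.855 and 0.63), with a sign that changes with the scaling. Of the 7 genes with those letters in the promoter, 4 were called lower in iWAT and 3 in BAT (30 of all 45 Nduf genes were in each tissue), over log2 fold changes of -1.35 to -0.27 and -1.24 to -0.30.

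How reads were assigned can bear on single genes. Estimated counts were whole numbers in all 20 libraries (within 0.001) for 2 of the 45 genes, and carried fractions in every library for Ndufa2, Ndufb4, Ndufb11 and Ndufs1. In the GENCODE vM21 annotation (GRCm38) 19 of the 45 genes share exon bases with another gene, 3 of them on the same strand and 17 on the opposite strand. The overlap exceeded 25% of exon bases in Ndufaf2, Ndufb6 (39%, with Smim27) and Ndufa13 (30%, with Tssk6). All 3 of these overlaps are on the opposite strand. Values of these genes may be less certain than the rest, which was not tested.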

How the data were processed

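Poly(A) RNA of 20 libraries (iWAT and BAT, Control and Ai-α4KO, 5 each) was prepared with a stranded kit and sequenced as paired reads of 150 bases. The paper states that a company, Takara Bio, carried out the RNA-seq. The submitters' processing notes name bcl2fastq 2, STAR 2.5.3a and mm10. The counting tool, its annotation and its use of strand are not given in the sources used here. The deposited table holds estimated counts per gene, which need not be whole and were rounded for the tests. It also holds FPKM values computed from them with the deposited transcript width. Totals were 24023371 to 50384446 counts.

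Groups came from the sample labels. Ai-α4KO was compared with Control within each tissue (10 libraries a fit), and tissues and the interaction of genotype and tissue in 1 fit of all 20, with edgeR 4.0.16 in R 4.3.3 (filterByExpr, TMM, quasi-likelihood test, Benjamini-Hochberg adjustment over all genes tested). A gene was called at an adjusted p below 0.01 and at least 2-fold, and "fell", "rose" and "passed" mean this. CPM values use TMM factors over all 20 libraries, and log2 CPM a prior count of 2. DESeq2 1.42.0, limma 3.58.1, other scalings, filters and thresholds, a replicate block, a muscle covariate and omitted libraries were alternatives. The code was tested on simulated data. Named genes were all Nduf genes but 1, which is counted in the class values and not reported here by itself, with values in every library for the extremes of each class, each Ndufaf gene, Ndufa4 and Ndufa4l2, and values of other pathway genes from set lists. Members, lists and tests were chosen with earlier results of these data known.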

Additional observations from a re-analysis of the deposited data

Results flagged for a closer look

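In 12 of 176 sets of 5 libraries (44 genes in 4 groups) 1 library lay apart from the rest by Dixon's criterion, which chance alone meets in about 1 in 20 sets. Of these, 6 were Control iWAT replicate 3, high for Ndufa11 (144.6 CPM), Ndufa8 (189 CPM), Ndufb6 (180.4 CPM), Ndufb7 (203 CPM), Ndufb8 (469.9 CPM) and Ndufv1 (504 CPM). Ai-α4KO iWAT replicate 1 was high for Ndufa8 (77.9 CPM), Ndufab1 (81.5 CPM) and Ndufs7 (72.04 CPM), and also for the difference between subunit and assembly factor levels (2.38 log2 units). Control BAT replicate 1 was high for Ndufa8 (428 CPM). Ndufa4l2 was high in Control iWAT replicate 1 (7.67 CPM) and in Ai-α4KO BAT replicate 5 (5.35 CPM). Among the other genes AA467197 was high in Control iWAT replicate 2 (3.51 CPM).

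The change of Ppargc1a without α4 differed between the tissues by 1.89 on the log2 scale, by the test of the interaction itself.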

How the results depend on the processing

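With no limit on the fold, 5 Ndufaf genes passed in iWAT and 4 in BAT. With library size alone as the scale, which moved the median of all genes to 0.13 in iWAT and 0.23 in BAT, 13 subunits and 1 Ndufaf gene were lower in Ai-α4KO BAT, and 3 Ndufaf genes were higher in BAT than in iWAT of Control. By limma on log2(FPKM + 1) these counts were 15, 1 and 2. Upper-quartile scaling gave 2 Ndufaf genes in iWAT, and leaving out Control iWAT replicates 1 and 4 together gave 3. Without Ai-α4KO BAT replicates 1 and 2, an alternative chosen after seeing the data, 12 subunits and 1 Ndufaf gene passed. On log2(FPKM + 0.1) the difference between subunits and assembly factors was 3.72 in Control iWAT, 3.18 in Ai-α4KO iWAT, 4.05 in Control BAT and 3.62 in Ai-α4KO BAT. The BAT value of Ppargc1a reversed to 0.13 (library size alone) and 0.12 (limma). Nrf1 reversed in BAT to 0.18 (library size alone), 0.11 (limma) and 0.035 (muscle covariate), and in iWAT to -0.064 (upper quartile), while with 1 library left out it ran from -0.053 to 0.088, below 0 without Control replicate 3, Control replicate 5 or Ai-α4KO replicate 2. Ndufaf2 in iWAT reversed to 0.0073 without Control replicate 4 and Ai-α4KO replicate 1, also chosen after seeing the data, and so did Nnt in iWAT, to 0.18. Nnt in iWAT was also above 0 by limma (0.037) and ran from -0.38 to 0.044 with 1 library left out. Cox6a2 reversed in BAT to -0.060 with the muscle covariate, and in iWAT, where it was not called, it ran from -2.44 to 3.50 with 1 library left out. The causes were not tested.

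With 1 library left out at a time, 22 to 33 subunits and 1 to 3 Ndufaf genes fell in iWAT, 20 to 27 and 2 to 3 in BAT, and 0 rose or passed the interaction. Higher in BAT were 33 to 35 subunits and 4 to 5 Ndufaf genes in Control, and 32 to 36 and 4 in Ai-α4KO. The level difference ran from 2.72 to 2.80, 2.20 to 2.25, 3.07 to 3.14 and 2.64 to 2.71 in Control iWAT, Ai-α4KO iWAT, Control BAT and Ai-α4KO BAT. Same-numbered iWAT and BAT libraries of 1 genotype correlated between -0.27 and 0.24 in their deviations from group means. Same-numbered Control and Ai-α4KO libraries of 1 tissue, which cannot share a mouse, correlated between -0.45 and 0.22. The labels do not say that a number marks a shared mouse, so the libraries were not treated as pairs, and whether the tissues share mice is not known. With a replicate block, which within a tissue ties Control to Ai-α4KO by number alone, 27 subunits and 1 Ndufaf gene fell in iWAT. In BAT 26 and 3 did. The lowest count of any Nduf gene in a library was 23, and the effect of depth was not tested.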
